A study of Mus musculus with 12 samples.

Results

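The genes described here are 10 markers commonly used for alternatively activated (M2) macrophages, read in cells that had received the classical (M1) stimulus. They are Il4ra, Pparg, Egr2, Mrc1, Cd163, Mgl2, Clec10a, Chil3, Retnla and Tgm2. They were picked by gene symbol from the 22243 genes of the deposited table, with 1 transcript listed for each of the 10, and 5 of the 10 passed the filter on low values. The study compared bone marrow-derived macrophages (BM-Mɸs) of 6 ErbB4myeKO mice, labelled LysMCre/ErbB4-floxxed (KO), with those of 6 littermates labelled ErbB4-floxxed (WT), here called ErbB4FF. All mice carried floxed ErbB4 on the strain background C57Bl/6, and each of 6 litters gave 1 mouse of each genotype. LysMCre drives Cre recombinase from the lysozyme M gene, so that the floxed allele is cut in myeloid cells, and the littermate controls have no Cre on their label. Marrow cells of both genotypes were grown in medium with M-CSF, then given 100 U/mL IFN-γ for 16 h and 100 ng/mL LPS for 6 h, and no library of unstimulated or IL-4-treated cells was analysed here. The labels give neither age nor sex.

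In background terms, IL-4 and IL-13 act on a receptor that holds the IL-4 receptor α chain, and the signal runs through Janus kinases to the transcription factor STAT6. STAT6, with the nuclear receptor PPARγ and the zinc finger factor EGR2, turns on genes of the alternative program: lectin and scavenger receptors such as the mannose receptor CD206 (Mrc1), CD163 and the galactose-type lectins CD301a and CD301b (Clec10a and Mgl2), and secreted proteins such as Ym1 (Chil3) and RELMα (Retnla). IFN-γ and LPS drive the classical program and are known to hold this program down in mouse macrophages.

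Values are TPM, the share of a library's transcripts that the listed principal transcripts of a gene make up. TPM are scaled to transcript length and to the same total over all transcripts, of which the listed ones held 59.0% to 74.7%. Levels of different genes are thus set side by side as levels of their listed transcripts. Reads assigned to unlisted transcripts of a gene are not counted. Erbb4, the targeted gene, was between 0.280 and 0.852 TPM in libraries labelled ErbB4myeKO and between 0.372 and 0.716 TPM in those labelled ErbB4FF. It was higher in the ErbB4myeKO library of 4 litters. Because Erbb4 did not separate the genotypes and its TPM covers the whole transcript, libraries are named by their label throughout. A macrophage list chosen for this report (Adgre1, Cd68, Csf1r, Itgam, Fcgr1, Mertk and Lyz2) had all 7 genes above a mean of 1 TPM. Its summed level was 4981 to 9857 TPM in libraries labelled ErbB4myeKO and 5088 to 14835 TPM in those labelled ErbB4FF. Most of it was Lyz2, the gene into which LysMCre is inserted, at 5305 ± 1985 and 8277 ± 3445 TPM (SD, n = 6 each). Apart from Lyz2, the Fc receptor gene Fcgr1 was lower in 6 of 6 litters (log2 ratio -0.86 ± 0.74) and Mertk higher in 6 of 6 (0.14 ± 0.19), with Itgam (-0.20 ± 0.24), Cd68 (-0.12 ± 0.35), Adgre1 (0.01 ± 0.20) and Csf1r (0.05 ± 0.21) in between. As these are bulk cultures, fewer cells of a type and less RNA per cell cannot be told apart. Separate mice stand behind the 12 libraries, so the spread between litters includes biological variation.

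The promoters of 3 members are printed, because they hold letters that factors of the alternative, the classical and the general myeloid program bind. In RefSeq's GRCm38.p6 windows, from 250 bases before to 50 bases after a start site, 8 of the 10 genes had 14 promoters; Clec10a and Tgm2 had no entry. The search covered both strands for TTC and GAA with 4 bases between them, a spacing that STAT6 prefers, for TTC and GAA with 3 bases between them, which other STATs use, and for GAGGAA, the core of sites of the myeloid factor PU.1. The Retnla promoter (chr16:48842359-48842658, plus strand) held the STAT6 spacing, the Chil3 promoter (chr3:106167515-106167814, minus strand) the spacing of other STATs, and the Mrc1 promoter (chr2:14229164-14229463, plus strand) the PU.1 letters 3 times. Capitals mark the STAT spacings and TTCCTC, which is GAGGAA read on the other strand and occurs in Mrc1 and Retnla.
Retnla: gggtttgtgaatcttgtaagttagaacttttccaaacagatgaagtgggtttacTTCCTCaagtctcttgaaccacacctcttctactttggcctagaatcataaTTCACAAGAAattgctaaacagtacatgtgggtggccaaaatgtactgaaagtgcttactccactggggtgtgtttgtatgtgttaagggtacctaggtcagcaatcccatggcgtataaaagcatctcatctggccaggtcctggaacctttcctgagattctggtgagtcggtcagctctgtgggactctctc
Chil3: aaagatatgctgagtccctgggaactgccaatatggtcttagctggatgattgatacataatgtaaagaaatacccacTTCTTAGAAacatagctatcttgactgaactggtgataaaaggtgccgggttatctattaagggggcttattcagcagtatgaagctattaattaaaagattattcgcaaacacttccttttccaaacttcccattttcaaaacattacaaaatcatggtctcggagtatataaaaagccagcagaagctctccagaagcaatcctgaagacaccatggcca
Mrc1: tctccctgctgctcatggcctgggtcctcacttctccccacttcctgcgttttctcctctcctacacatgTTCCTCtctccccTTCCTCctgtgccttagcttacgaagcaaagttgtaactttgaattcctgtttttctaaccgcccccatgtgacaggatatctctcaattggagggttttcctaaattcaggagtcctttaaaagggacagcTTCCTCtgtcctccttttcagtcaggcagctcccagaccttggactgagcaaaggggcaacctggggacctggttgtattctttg

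Of the 14 promoters, 1 (7.14%) held the STAT6 spacing, against 6.95% of all 32851 promoters in the RefSeq table, and 1 (7.14%) held the spacing of other STATs, against 8.30%. PU.1 letters were in 8 of the 14 (57.1%) and in 28.3% of all promoters. Of the 4 Egr2 promoters among these 8, 3 overlap and share 1 match. The letters with the STAT6 spacing in Retnla, TTCACAAGAA, begin 145 bases before the start site. The letters with the spacing of other STATs in Chil3, TTCTTAGAA, begin 172 bases before its start site. The only Il4ra promoter held none of the 3 motifs. A match is a stretch of letters and not a measured binding site.

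The members fell into a detected group and a group at or near 0. Tgm2, Il4ra, Chil3 and Mrc1 were above 0 in all 12 libraries, 5 others were above 0 in some of them, and Retnla was listed at 0 in all 12. Averaged over the libraries, Tgm2 stood at 264 TPM, above 95.3% of the 8780 genes that passed the filter (mean across libraries of 1 TPM or more). Il4ra followed at 23.4 TPM, above 70.2% of those genes. Chil3, at 9.005 TPM, and Mrc1, at 5.75 TPM, were above 49.2% and 37.8% of them. Clec10a (1.25 TPM) was above only 4.18% of them, and Pparg (0.890), Egr2 (0.148), Mgl2 (0.122) and Cd163 (0.0148 TPM) lay below the filter. The 8 steps between neighbours in this order were compared on the log2(TPM + 0.5) scale with the mean of both libraries of a litter. The order was set by these same libraries, so the p-values only set each step against its spread between litters and are no independent evidence of the order. Tgm2 was above Il4ra by 3.66 ± 0.66 (SD over 6 litters), Mrc1 above Clec10a by 2.31 ± 0.77 and Pparg above Egr2 by 1.06 ± 0.37, each in 6 of 6 litters. These 3 steps had the smallest p that 6 litters allow (exact two-sided permutation p = 0.0312), which became 0.0833 adjusted over the 8 steps. The step from Il4ra to Chil3 was 1.81 ± 1.81 (exact permutation p = 0.0625, adjusted 0.125). Chil3 and Mrc1 did not differ beyond their spread (0.23 ± 1.61, exact permutation p = 0.688), nor did Clec10a and Pparg (-0.35 ± 0.74, exact permutation p = 0.281), Egr2 and Mgl2 (exact permutation p = 0.875) or Mgl2 and Cd163 (exact permutation p = 0.50).

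Between the genotypes, none of the 5 members tested passed the adjusted threshold. Il4ra and Clec10a had lower values in libraries labelled ErbB4myeKO in 5 and 4 of 6 litters, Pparg in 5, while Mrc1 and Chil3 were higher in 3 litters and lower in 3, and Tgm2 had log2 ratios between -0.13 and 0.20 in all litters but litter 3. Over the 9 members with any value above 0 the median log2 ratio was -0.08, and over the 5 that passed the filter it was -0.47, or -0.14 without litter 2, compared with -0.00068 for all 8780 genes. One of the 5, Clec10a, passed only through its ErbB4FF libraries, where it was high, so that the median and the counts over the 5 are a description and support no direction. In limma 0 of the 5 had an adjusted p under 0.05, as did 0 of the 8780 genes (0%). At an unadjusted p under 0.05 there were 2 of the 5, Il4ra and Clec10a, both lower, and the direction of Clec10a follows from how it passed the filter. Neither had p under 0.05 without litter 2 or without litter 4. Of all genes, 385 (4.38%) were lower at that p and 721 (8.21%) in either direction. None of the 5 had the same sign in all 6 litters, which 203 genes (2.31%) had as lower and 220 genes (2.51%) as higher. Litter 6 was the only litter in which Il4ra and Pparg were higher in the ErbB4myeKO library, and Mrc1, Chil3 and Egr2 also had their highest ratios there (0.97, 1.34 and 1.07). It was also the only litter in which the summed macrophage list, mostly Lyz2, was higher in the ErbB4myeKO library, at 9857 TPM against 5088 TPM. In the other 5 litters that sum was the lower (log2 ratio over all 6 -0.47 ± 0.71, exact permutation p = 0.219), and its part in the ratios of Il4ra, Mrc1 and Pparg was not tested.

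**Figure D1:**
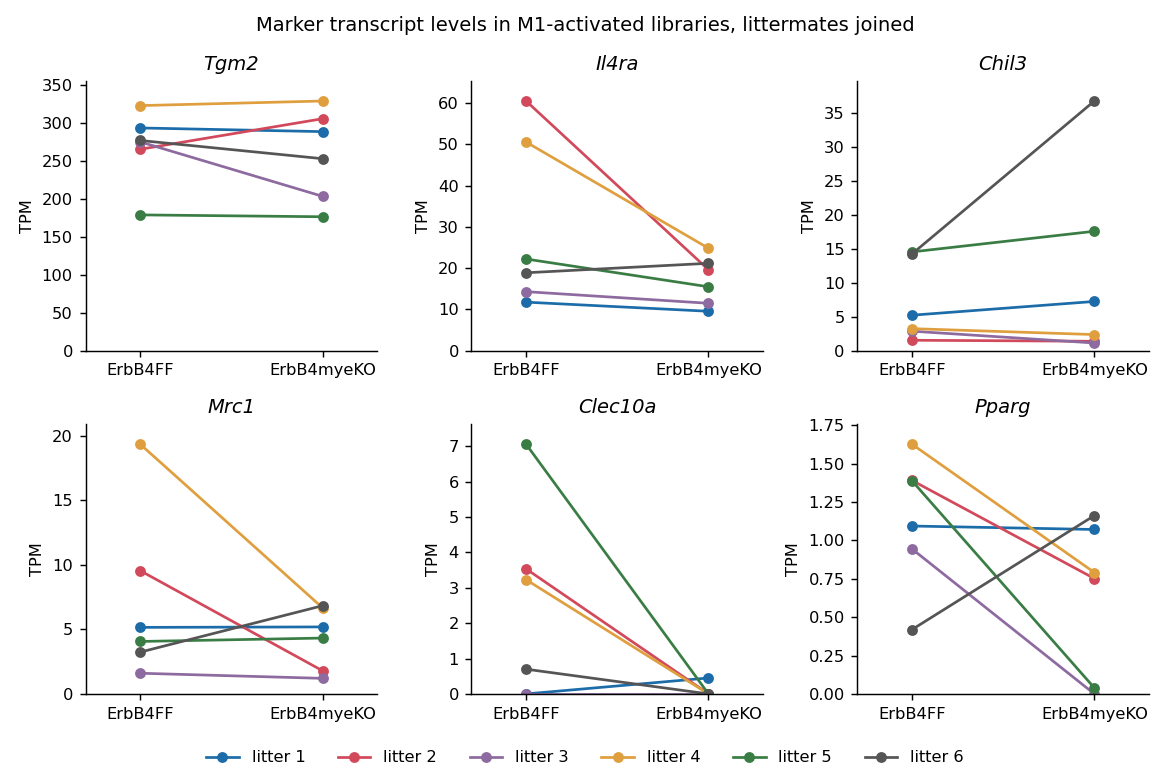
TPM of the 6 members with the highest means, by genotype label, with a line joining the littermates of each of 6 litters. The Il4ra level of litters 2 and 4 starts at 60.5 and 50.5 TPM in the ErbB4FF library and ends at 19.6 and 24.8 TPM in the ErbB4myeKO library, while Tgm2 runs nearly flat in most litters.

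Il4ra (ENSMUSG00000030748, chromosome 7 of GRCm38, 125552120 to 125579474) encodes the IL-4 receptor α chain, through which IL-4 and IL-13 are sensed. In litters 1 to 6 it was 9.55, 19.6, 11.5, 24.8, 15.5 and 21.2 TPM in libraries labelled ErbB4myeKO. In their ErbB4FF littermates it was 11.8, 60.5, 14.3, 50.5, 22.2 and 18.9 TPM. The ErbB4FF libraries of litters 2 and 4 stood above all others, and the ranges of the genotypes overlapped in the remaining litters. The means were 17.0 ± 5.89 and 29.7 ± 20.6 TPM (SD, n = 6 each). Within litters the log2 ratio of ErbB4myeKO to ErbB4FF was -0.59 ± 0.62 (SD over 6 litters), lower in 5 of 6 litters and higher in litter 6 (exact permutation p = 0.0625). In limma, fitted to all 8780 genes with litter as a block, the standard error was 0.22, the 95% interval ran from -1.09 to -0.09, and the p of 0.0268 became 0.603 after Benjamini-Hochberg adjustment. Without litter 2 the mean log2 ratio moved to -0.39 (limma unadjusted p = 0.0511). The listed transcript shares 67.7% of its 31-mers with other Il4ra transcripts.

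Clec10a (ENSMUSG00000000318, chromosome 11, 70156197 to 70170834) encodes CD301a, a C-type lectin that binds galactose and N-acetylgalactosamine and is found on macrophages and dendritic cells. Among the ErbB4myeKO libraries only that of litter 1 had a value, 0.451 TPM, and those of litters 2 to 6 were listed at 0. The ErbB4FF libraries of litters 2, 4, 5 and 6 had 3.53, 3.23, 7.06 and 0.699 TPM, and those of litters 1 and 3 were listed at 0. All values above 1 TPM were thus in ErbB4FF libraries, whereas litter 1 went the other way and litter 3 had no value above 0. On the log2(TPM + 0.5) scale the log2 ratio averaged -1.69 ± 1.90 (SD over 6 litters; exact permutation p = 0.125), and the limma adjusted p was 0.603. The ratio was lower in 4 litters, equal in 1 and higher in 1. The size of this ratio depends on the pseudocount, being -2.82 with 0.1 and -1.25 with 1 in place of 0.5. As Clec10a met the filter only through its ErbB4FF libraries, its limma result is no independent sign of a lower level, and it fell below the filter without litter 5. Of 10 annotated Clec10a transcripts only 1 is in the table, and 97.7% of its 31-mers occur in others of the gene.

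Mgl2 (ENSMUSG00000040950, chromosome 11, 70130329 to 70137550), the neighbour of Clec10a, encodes the closely related lectin CD301b. It was above 0 only in litters 4 and 5, at 0.0885 and 0.767 TPM in the ErbB4myeKO libraries and at 0.0984 and 0.515 TPM in the ErbB4FF libraries. Both libraries of these litters thus had a value, whereas Clec10a was listed at 0 in their ErbB4myeKO libraries. The listed transcripts of the pair share sequence, as 28.0% of the 31-mers of Mgl2 and 24.7% of those of Clec10a occur in transcripts of other genes, mostly of each other. With both genes added up, a step chosen after the values were seen, the log2 ratio was -1.45 ± 1.63 (SD over 6 litters; exact permutation p = 0.125). Litter 5, for example, had 0.767 TPM of the sum in the ErbB4myeKO library and 7.57 TPM in the ErbB4FF library.

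Since the CD301 lectins are also carried by dendritic cells, a dendritic cell list (Flt3, Zbtb46, Dpp4, Xcr1, Clec9a, Cd209a and Ccr7) is given beside Clec10a. Its summed level was 44.5 to 122 TPM in libraries labelled ErbB4myeKO and 30.6 to 94.0 TPM in those labelled ErbB4FF. In litters 2, 4 and 5, where Clec10a was high in the ErbB4FF library, the sum was 36.3, 45.2 and 44.8 TPM in the ErbB4FF libraries and 54.0, 85.2 and 44.9 TPM in the ErbB4myeKO libraries. In litter 6, where Clec10a was above 0 in the ErbB4FF library alone, the sum was 30.6 TPM there and 44.5 TPM in the ErbB4myeKO library. In litter 1, where Clec10a was higher in the ErbB4myeKO library, the sum was so too, at 122 against 94.0 TPM. The part of dendritic cells in the Clec10a values was not tested. Of the 7 genes, 3 reached a mean of 1 TPM, Cd209a was listed at 0 in all 12 libraries, and Flt3 reached at most 0.0789 TPM. Ccr7, which activated macrophages can also express, was 20.3 to 104 and 15.9 to 76.7 TPM. Without Ccr7 the sums in litters 1 to 6 were 17.8, 10.7, 33.6, 9.98, 9.43 and 24.2 TPM in the ErbB4myeKO libraries. In the ErbB4FF libraries they were 17.2, 7.95, 25.5, 4.56, 9.60 and 14.7 TPM, so littermates were nearly equal in litters 1 and 5. Xcr1 was 7.72 to 29.0 and 2.56 to 22.1 TPM and was higher in the ErbB4myeKO library in 5 of 6 litters (log2 ratio 0.63 ± 0.66, exact permutation p = 0.0938). Eosinophil markers (Prg2, Epx, Siglecf, Il5ra and Ear6) were highest in litter 5, at 3.16 and 6.38 TPM in sum for ErbB4myeKO and ErbB4FF, and 0 of the 5 reached a mean of 1 TPM.

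**Figure D2:**
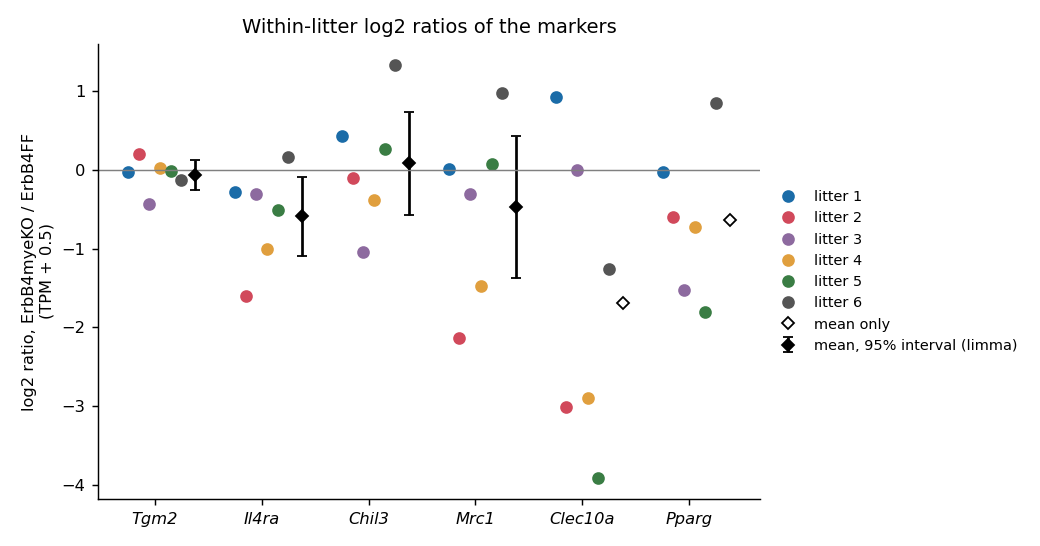
Log2 ratio of ErbB4myeKO to ErbB4FF, from TPM + 0.5, in each of 6 litters (coloured points) for 6 members, with the mean and 95% interval of limma as a filled diamond or, for Clec10a and Pparg, the mean alone as an open diamond. The interval of Il4ra (-1.09 to -0.09) lies below 0, those of Tgm2, Chil3 and Mrc1 include it, and the points of Clec10a spread from -3.92 to 0.93.

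Mrc1 (ENSMUSG00000026712, chromosome 2, 14229392 to 14332057) encodes the mannose receptor CD206, an endocytic receptor and a widely used surface marker of alternative activation. In litters 1 to 6 it was 5.19, 1.79, 1.20, 6.67, 4.33 and 6.84 TPM in libraries labelled ErbB4myeKO. In the ErbB4FF libraries it was 5.16, 9.55, 1.60, 19.4, 4.06 and 3.24 TPM. As with Il4ra, the ErbB4FF libraries of litters 2 and 4 were the highest of the 12, and elsewhere the littermates lay close together or, in litter 6, the other way round. The group means were 4.34 ± 2.40 and 7.16 ± 6.55 TPM (SD, n = 6 each), and the log2 ratio was -0.47 ± 1.13 (SD over 6 litters), with 3 litters lower and 3 higher (exact permutation p = 0.375). Limma gave a 95% interval of -1.37 to 0.43 and an adjusted p of 0.714. The mean moved to -0.14 without litter 2 and to -0.27 without litter 4. Only 19.0% of the 31-mers of this transcript occur in another Mrc1 transcript and 0% in other genes.

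Cd163 (ENSMUSG00000008845, chromosome 6, 124304656 to 124330527) encodes the scavenger receptor for haemoglobin bound to haptoglobin. It was listed at 0 in all 6 libraries labelled ErbB4myeKO and in 3 of those labelled ErbB4FF. The other 3 ErbB4FF libraries, of litters 1, 5 and 6, were at 0.0786, 0.0549 and 0.0445 TPM. With values in 3 litters the permutation cannot give a p below 0.250, so it could not show a difference between the genotypes. Cd163 lay below the filter of the main limma fit. In the limma fit with no filter, which Cd163 entered, 0 of 9 members had an adjusted p under 0.05 (smallest 0.764). Of the 31-mers of the listed transcript, 98.4% are shared with other Cd163 transcripts.

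Chil3 (ENSMUSG00000040809, chromosome 3, 106147554 to 106167564) encodes Ym1, a secreted chitinase-like protein that binds sugars and has no known chitinase activity. Litters 1 to 6 had 7.24, 1.39, 1.13, 2.37, 17.6 and 36.7 TPM in libraries labelled ErbB4myeKO and 5.22, 1.54, 2.87, 3.25, 14.5 and 14.2 TPM in those labelled ErbB4FF. Litters 5 and 6 were high in both genotypes and litters 2, 3 and 4 low in both. Of the variation of log2(TPM + 0.5) over the 12 libraries, 93.1% lay between litters, 0.0875% between genotypes and 6.78% in the remainder. The median gene of the 8780 had 78.1% between litters. The log2 ratio of Chil3 was 0.08 ± 0.81 (SD over 6 litters), higher in 3 litters and lower in 3 (exact permutation p = 0.781), with a limma interval from -0.57 to 0.74 and an adjusted p of 0.935. Its direction turned to -0.17 without litter 6. The median ratio of all genes tested was -0.00068.

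Chil3 is also made by neutrophils and their precursors, and a neutrophil list (S100a8, S100a9, Ly6g, Elane, Mpo, Ltf, Camp, Ngp and Retnlg) was high in the same litters. Its sum was 214 and 185 TPM in litter 5 and 371 and 153 TPM in litter 6 (ErbB4myeKO and ErbB4FF), whereas it was between 39.6 and 72.3 TPM in the 8 libraries of litters 1 to 4. In litter 6 both the list and Chil3 were higher in the ErbB4myeKO library. S100a8 made up the largest part of the sum, at up to 253 TPM, and 4 of the 9 genes reached a mean of 1 TPM. Of the granule protein genes, Camp reached 10.5 TPM and was higher in the ErbB4myeKO library in 6 of 6 litters (log2 ratio 0.45 ± 0.41, exact permutation p = 0.0312). Ngp, at up to 18.4 TPM, and S100a9, at up to 103 TPM, were each higher in 3 litters and lower in 3 (-0.36 ± 1.3 and -0.24 ± 1.28), as was the summed list (0.24 ± 0.53, exact permutation p = 0.375). Ltf reached at most 1.57 TPM, Ly6g, Elane and Mpo at most 0.549 TPM, and Retnlg was listed at 0 in all 12 libraries. The part of these cells in the Chil3 values was not tested. Chil3 shares 44.8% of its 31-mers with transcripts of other genes, most of them with Chil4, a paralog that was itself listed at 0 in all 12 libraries.

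Retnla (ENSMUSG00000061100, chromosome 16, 48842551 to 48844461) encodes RELMα, also called Fizz1, a small secreted protein that IL-4 strongly induces in mouse macrophages. It was listed at 0 in all 12 libraries, and it is the only member without a value above 0 and the member whose promoter, printed above, holds the STAT6 spacing. Its single annotated transcript of 599 bases shares 5.45% of its 31-mers with other genes, mostly Retnlg, and none with another Retnla transcript. The deposited TPM come with no read count per library, and no upper limit was computed for a value of 0.

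Tgm2 (ENSMUSG00000037820, chromosome 2, 158116402 to 158146436) encodes tissue transglutaminase, which cross-links proteins, and it is induced by IL-4 in macrophages of mouse and human but also by inflammatory stimuli. In litters 1 to 6 it was 288, 305, 203, 329, 176 and 253 TPM in libraries labelled ErbB4myeKO and 293, 265, 275, 323, 179 and 277 TPM in those labelled ErbB4FF. Littermates were nearly equal in all litters but 2 and 3, and both libraries of litter 5 were the lowest of the 12. The log2 ratio was -0.06 ± 0.21 (SD over 6 litters; exact permutation p = 0.63), and limma's interval from -0.26 to 0.13 (adjusted p = 0.826) was the narrowest among the 5 members tested. The SD of this ratio was larger than that of only 23.3% of all genes tested, compared with 76.8% for Il4ra, 83.7% for Chil3, 90.7% for Mrc1 and 97.3% for Clec10a. Litter accounted for 88.3% of its variation. Of its 31-mers, 20.3% occur in transcripts of other genes, mostly of Gm20412.

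The transcription factors of the list were near the limit of what the table shows. Pparg (ENSMUSG00000000440, chromosome 6, 115360951 to 115490399) encodes PPARγ, a fatty acid sensing nuclear receptor that sustains alternative activation. It was 1.07, 0.752, 0, 0.791, 0.0392 and 1.16 TPM in the ErbB4myeKO libraries of litters 1 to 6 and 1.09, 1.39, 0.944, 1.63, 1.39 and 0.419 TPM in the ErbB4FF libraries. The ErbB4myeKO library was the lower in 5 of 6 litters and the higher in litter 6, and the log2 ratio averaged -0.64 ± 0.98 (SD over 6 litters; exact permutation p = 0.219). It was -0.40 without litter 5 and -0.93 without litter 6. Its mean was below the 1 TPM filter, so it was not among the genes tested, and 92.7% of its 31-mers occur in other Pparg transcripts. Egr2 (ENSMUSG00000037868, chromosome 10, 67535475 to 67542188), an early zinc finger factor of the alternative program, was listed at 0 in 8 libraries. It reached 0.261, 0.169 and 0.549 TPM in the ErbB4myeKO libraries of litters 4, 5 and 6 and 0.802 TPM in the ErbB4FF library of litter 1 (exact permutation p = 0.750). No direction was shared by the litters for Egr2.

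Across the 12 libraries, Il4ra and Mrc1 varied together (Pearson r = 0.68, Spearman's rho = 0.60), as did Il4ra and Clec10a (r = 0.64, rho = 0.48), whereas Chil3 was not close to any other member, with r between -0.39 and 0.19. These are descriptions over libraries that share litters. The genes whose log2(TPM + 0.5) was closest to each member over the 12 libraries were taken from all genes tested. For Il4ra they were Map3k1 (r = 0.94, rho = 0.87) and Tax1bp1 (r = 0.94, rho = 0.94). For Mrc1 they were Slc12a7 and Zc3h12d (r = 0.90 and rho = 0.80 for each). For Chil3 they were C1s1 (r = 0.96, rho = 0.98) and Fabp5 (r = 0.94, rho = 0.94), and for Tgm2 Cc2d1a (r = 0.96, rho = 0.83). Clec10a had the loosest matches, Nbn (r = 0.82, rho = 0.74) and Ppp3r1 (r = 0.81, rho = 0.77). They are the highest values over all genes tested, and their size follows from that choice.

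To see how the markers moved beside the classical program, each member's within-litter ratio was set against the median ratio of 20 classical activation genes, among them Il12b, Tnf, Il6, Nos2 and Cxcl10. That median was 0.28 in litter 2, 0.27 in litter 4 and 0.11 in litter 1, and between -0.04 and -0.03 in litters 3, 5 and 6. Litters 2 and 4 were thus the ones with the highest classical ratio and with the lowest Il4ra and Mrc1 ratios. Over 6 litters, r was -0.86 for Il4ra (exact permutation p = 0.0208) and -0.89 for Mrc1 (exact permutation p = 0.0194), each with rho = -0.83 (exact permutation p = 0.0583). For Tgm2 it was 0.73 (exact permutation p = 0.0597) with rho = 0.89 (exact permutation p = 0.0333). For Chil3 and Clec10a r was -0.26 and -0.28 (exact permutation p = 0.618 and 0.576), with rho = -0.31 for each (exact permutation p = 0.564). Adjusted over the 5 relations, the smallest p was 0.0521 for r and 0.0972 for rho. The comparison was not among those planned. How many of all genes tested have an r of this size was not computed, so the relation cannot be called particular to these markers. Without litters 2 and 4, the farthest from the median of the classical ratio, r was -0.19 for Il4ra, -0.27 for Mrc1 and 0.44 for Tgm2, so these relations rest on those litters. For Chil3 and Clec10a r changed sign, to 0.087 and 0.60.

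**Figure D3:**
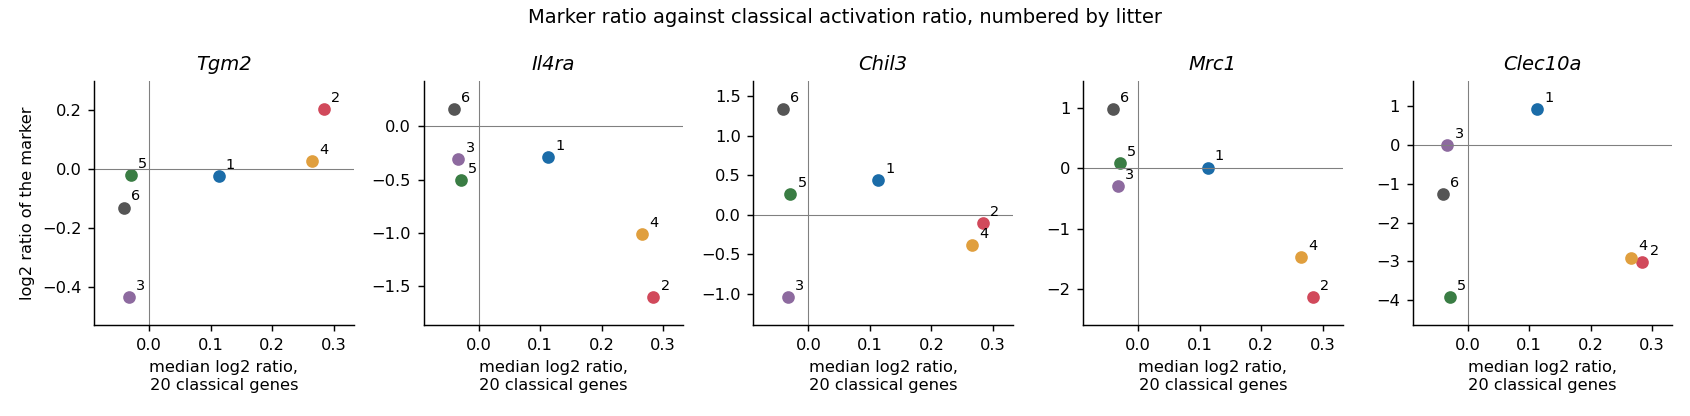
Within-litter log2 ratio of each of 5 members (vertical axes, each with its own range) against the median log2 ratio of 20 classical activation genes (horizontal axes), with points numbered by litter. Litters 2 and 4 lie at the right, at 0.28 and 0.27, and carry the lowest ratios of Il4ra and Mrc1.

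Upstream of the markers, the IL-4 receptor and STAT6 pathway had most of its receptor and signalling genes above the filter in these M1 cells. Of its ligands, Il4 was listed at 0 in all 12 libraries, and Il13 was above 0 in 3 of them, at up to 0.204 TPM. Of 26 genes in the pathway list, 21 passed the filter, 10 of them above and 11 below 0 in log2 ratio, with a median of -0.05. In limma 0 of the 21 had an adjusted p under 0.05 (smallest 0.603), and at an unadjusted p under 0.05 there was 1 higher and 1 lower, beside 8.21% of all genes. Il2rg, which encodes the common γ chain that pairs with the IL-4 receptor α chain, was 445 to 712 TPM in libraries labelled ErbB4myeKO and 479 to 750 TPM in those labelled ErbB4FF. Stat6 was 63.8 and 63.7 TPM on average, and their log2 ratio was 0.01 ± 0.06 (SD over 6 litters). Tyk2, a Janus kinase of the IL-13 and interferon receptors, was the higher one (log2 fold change 1.03, standard error 0.40, adjusted p = 0.603, exact permutation p = 0.0625), in 5 of 6 litters, and was listed at 0 in 2 libraries. Jak3, the kinase bound to the common γ chain, was lower in the ErbB4myeKO library in all 6 litters, at 5.89 against 8.42 TPM on average (log2 fold change -0.51, standard error 0.16, adjusted p = 0.603, exact permutation p = 0.0312). Stat3, which carries IL-6 and IL-10 signals, was also lower in 6 of 6 litters (-0.15, standard error 0.07, adjusted p = 0.603, exact permutation p = 0.0312). Socs1, an inhibitor of Janus kinases, stood at 0.13 ± 0.32 in log2 ratio (SD over 6 litters).

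Beyond the members, 30 further genes of alternative activation were listed, and 19 passed the filter, 8 above and 11 below 0, with a median log2 ratio of -0.01. In limma 0 of the 19 had an adjusted p under 0.05 (smallest 0.603). Without adjustment, 3 had p under 0.05, beside 8.21% of all genes. They were 2 that were higher, the chemokine gene Ccl22 (0.41, standard error 0.16) and the arginine transporter gene Slc7a2 (0.71, standard error 0.26), and 1 that was lower, Il1rn, which encodes the IL-1 receptor antagonist (-0.23, standard error 0.09). None of the 19 had the same sign in all 6 litters. Chil4, Cd209a, Cd209b, Retnlg and Alox15 were listed at 0 in all 12 libraries, as Retnla was. Folr2 and Cd36, scavenging and uptake receptors often set beside Mrc1, were far more abundant than it, at 163 and 326 TPM on average in the ErbB4myeKO libraries.

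**Figure D4:**
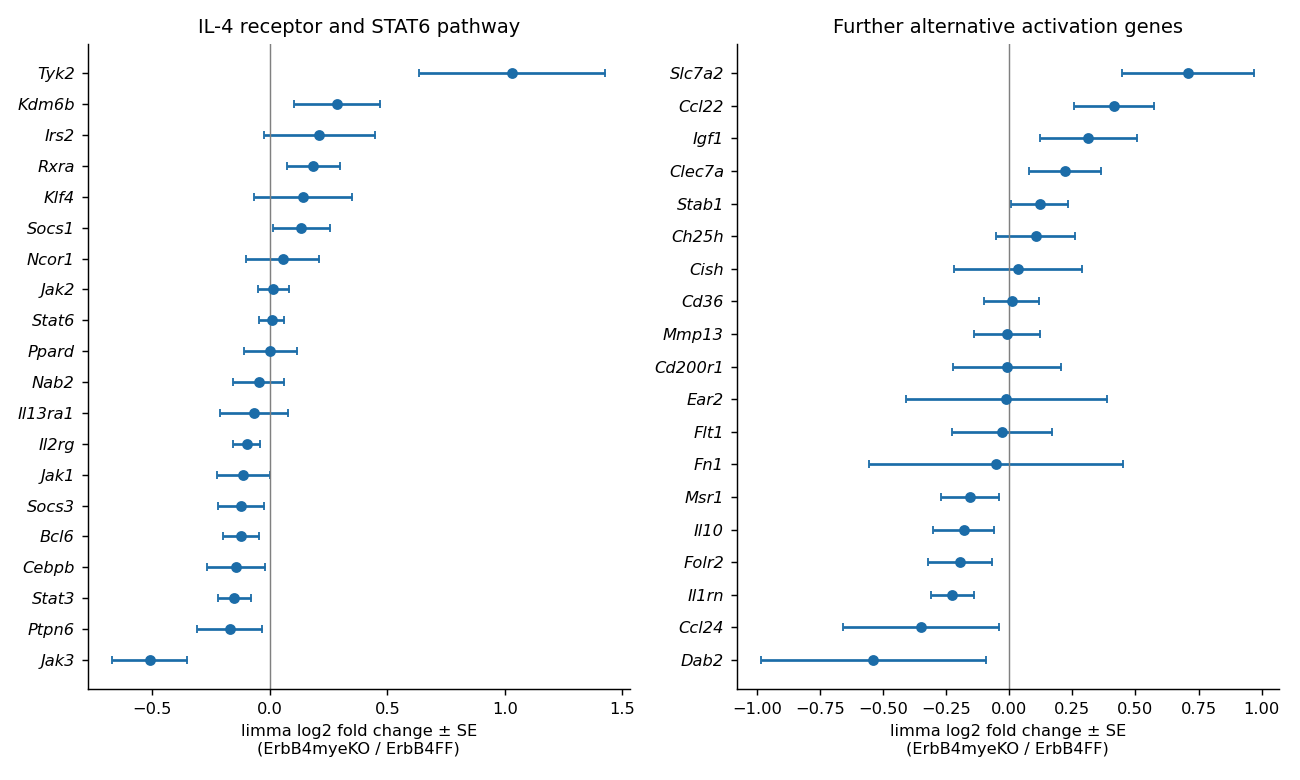
Limma log2 fold change of ErbB4myeKO against ErbB4FF with its standard error (bars) for 20 of the 21 tested genes of the IL-4 receptor and STAT6 pathway list (left) and the 19 tested genes of further alternative activation (right). The points lie on both sides of 0 in each panel, from -0.51 for Jak3 to 1.03 for Tyk2 on the left and from -0.54 for Dab2 to 0.71 for Slc7a2 on the right.

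All 20 classical activation genes passed the filter, 12 of them above and 8 below 0, with a median log2 ratio of 0.13. Limma called 0 at an adjusted p under 0.05 (smallest 0.603) and 3 at an unadjusted p under 0.05, again beside 8.21% of all genes. These 3 were Il12b and Ptgs2, both higher, and Cxcl10, which was lower. Tnf was not among them (limma unadjusted p = 0.0608). Il12b (log2 ratio 1.19 ± 1.39) and Tnf (0.51 ± 0.68) were higher and Cxcl10, an interferon-induced chemokine (-0.18 ± 0.12), was lower in the ErbB4myeKO library in 6 of 6 litters (SD over 6 litters, exact permutation p = 0.0312 and limma adjusted p = 0.603 for each). Nos2, the inducible nitric oxide synthase, had the lowest ratio of the list (-2.22 ± 4.16, lower in 4 litters, equal in 1 and higher in 1, exact permutation p = 0.250). Nos2 was 0 to 115 TPM in libraries labelled ErbB4myeKO, with a median of 0.0263 TPM. In those labelled ErbB4FF it was 0 to 139 TPM, with a median of 25.8 TPM. It was listed at 0 in 2 ErbB4myeKO libraries and in 1 ErbB4FF library. Only principal transcripts are listed, so a 0 does not show that Nos2 was silent, and its sequence shared with other transcripts was not computed. Compared with the classical genes the markers were scarce: Tnf averaged 2721 TPM in libraries labelled ErbB4myeKO and Mrc1 4.34 TPM.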

How the data were processed

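Polyadenylated RNA of 12 M1-activated BM-Mɸ cultures was sequenced as single-end reads of 75 bp. From kallisto pseudoalignment the authors deposited TPM for transcripts marked as principal by APPRIS; versions of the tool and transcriptome are not given in the sources used here, and mm10 is the build per the labels. The study gives an approximate read depth for all samples, but the table has no read count per library, so precision rests on the spread between litters. The table also holds the authors' own comparison (p-values, q-values and ratios), which was not used.

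Of 29213 lines, 405 repeated a transcript and were dropped. Transcripts were added up to genes. The 8780 genes averaging 1 TPM or more entered a limma 3.58.1 fit (R 4.3.3) on log2(TPM + 0.5), which had terms for genotype and litter and used a trended eBayes step. Adjusted p are Benjamini-Hochberg over all 8780 genes, at 0.05. Single genes were tested by exact two-sided permutation of the genotypes within litters (64 swaps, smallest p 0.0312). GENCODE M21 (GRCm38) gave positions, symbols and shared 31-mers. The fit was tested on simulated data. Python 3.11.15 was used.

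The members and the gene lists were chosen with earlier results of these data known. Genes named were all members, list genes with 1 sign in all litters (up to 4 per list) and the 2 genes closest to each tested member; others were named after their values were seen, and a few items are not reported here. The litter number pairs samples through the batch label and littermates' deviations, which correlated at 0.273 to 0.774. In every litter this was above the highest correlation of its ErbB4myeKO library with an ErbB4FF library of another litter. The margin was small in litter 2 (0.273 against 0.214) and litter 4 (0.409 against 0.379). The listed transcripts held 59.0% to 74.7% of a library's TPM.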

Additional observations from a re-analysis of the deposited data

Results flagged for a closer look

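In 22 groups of 6 values of the members, 4 held a value farther from the rest than Dixon's 95% limit. Chance gives about 1 in 20 groups of measured values, but that rate does not apply here, since all 4 groups consist mostly of values listed at 0 (4 of 6 for Mgl2 and 5 of 6 for Clec10a and Egr2). With 5 values at 0, a lone value above 0 passes the limit by construction. Mgl2 in litter 5 was at 0.767 TPM in the ErbB4myeKO library and at 0.515 TPM in the ErbB4FF library, each far above the next value of its group, 0.0885 and 0.0984 TPM. Clec10a in the ErbB4myeKO library of litter 1 (0.451 TPM) and Egr2 in the ErbB4FF library of litter 1 (0.802 TPM) were the only values above 0 of their groups.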

How the results depend on the processing

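For the members, the 3 lists and all genes, limma was repeated under 15 alternatives: no replicate block, a pseudocount of 0.1 or 1, no filter, a filter at 5 TPM, scaling to median ratios, no trend, the most abundant transcript alone, a covariate from 4 Y-linked genes in place of sex, and each litter left out. The count of calls stayed at 0 for the members and for each list under all 15, also with no replicate block, and for all genes it was 0 except without litter 3, where it was 1 (range 0 to 1 over the litters left out). With no replicate block the count of all genes at an unadjusted p under 0.05 was 75 in place of 721. The median log2 ratio of the tested members lay between -0.74 and -0.08, the latter with no filter, which brings in the members near 0. Chil3 turned to -0.10 with the Y-linked covariate and to -0.17 without litter 6, and Tgm2 to 0.011 without litter 3. Leaving out each replicate gave -0.17 to 0.31 for Chil3 and -0.12 to 0.011 for Tgm2. The 95% intervals of both include 0. Il4ra, Mrc1 and Clec10a stayed below 0 wherever they were tested, at -0.74 to -0.39, -0.76 to -0.14 and -2.82 to -1.25. Clec10a could not be tested without litter 5 or with the 5 TPM filter, as it then fails the filter. Adjusted p of the members lay between 0.5005 and 0.9999 over the alternatives. The unadjusted p of Clec10a was 0.0600 with a pseudocount of 0.1, 0.0680 with the Y-linked covariate, and 0.0982, 0.0970 and 0.0585 without litters 2, 4 and 6; that of Il4ra was 0.166 with no replicate block and 0.0511 and 0.0766 without litters 2 and 4. Members near 0 TPM, and those whose listed transcript shares most of its sequence with transcripts not used here, are limited by both.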
